A study of Homo sapiens with 7 samples.

Results

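The heat shock proteins and the DNAJ cochaperones were examined as 66 gene rows of the 60234 in the deposited expression table. They were chosen by symbol: names of the form HSPA, HSPB, HSPD, HSPE, HSPH, HSP90, DNAJA, DNAJB or DNAJC with a number, and a mean of at least 1 TPM over 6 libraries. TPM is a length-corrected share of all transcripts in a library, with the same total in each, so TPM levels can be set side by side between genes. Of 151 rows with a matching name, 76 carried a P and a digit at the end, the usual mark of a pseudogene, and 9 were below the minimum. The 66 rows stand for 65 symbols, because HSPA14 has 2 overlapping rows. Just inside the minimum were HSPA1L at 1.34 TPM and HSPA2 at 1.28 TPM, and just outside it was HSPA12B at 0.461 TPM. The strongly heat-inducible HSPA6 was also outside, at 0.146 TPM. The name rule also dropped HSPBP1 and HSPBAP1, genes for proteins that bind HSP70 and HSPB1, with group means of 24.7 and 26.3 TPM for HSPBP1 and 1.25 and 1.65 TPM for HSPBAP1. Neither was called.

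Heat shock proteins are chaperones that hold, fold or refold other proteins. HSP70 works in cycles of ATP binding and hydrolysis, and J-domain proteins of the DNAJ families bring it clients and trigger the hydrolysis, while HSP90 finishes the folding of kinases, receptors and other clients. Small heat shock proteins bind unfolding proteins without using ATP, and in striated muscle several of them sit on the contractile filaments, where mutations of some of them cause myopathy. Heat shock factor 1 (HSF1) raises the inducible members when unfolded protein builds up in the cytosol, and a separate response to unfolded protein in the endoplasmic reticulum (ER) raises the chaperones of that compartment.

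The cells were cardiomyocytes differentiated from WTC-11, an established human induced pluripotent stem cell line, and kept for 35 days before treatment. An ASO (antisense oligonucleotide, a synthetic strand made to pair with 1 RNA) was given passively at 2 uM for 96 h. The 3 control libraries had a scrambled ASO and the 4 others an ASO against MYH7B, whose transcript the study title names as a regulatory long noncoding RNA. All libraries share the line, the maturation, the dose and the time, untreated cells were not analysed here, and the labels do not say how many sequences the MYH7B ASO stands for, so an effect of a sequence and an effect of losing the transcript cannot be told apart. The labels do not say whether the libraries of a group came from separate differentiations, so p-values measure the spread between these libraries.

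The deposited column of MYH7B ASO replicate 1 is out of row register with the gene names, so the comparison used scrambled ASO replicates 1 to 3 and MYH7B ASO replicates 2 to 4. Values of replicate 1 given here come from putting the column back in the order of GENCODE 29 gene identifiers, which brought its median correlation with the other libraries from 0.408 to 0.955. MYH7B, the target, had 23.0, 36.5 and 25.1 TPM with the scrambled ASO and 9.30, 5.65 and 6.31 TPM with the MYH7B ASO, a log2 fold change of -1.85 (limma adjusted p = 0.0109). It did not pass without MYH7B ASO replicate 4 (limma adjusted p = 0.0618) or with replicate 1 added (0.0525), where its level was 1.29 TPM. All 10 cardiomyocyte markers examined reached 1 TPM, with summed levels of 8321 to 9512 TPM in the controls, 6287 to 8294 TPM in MYH7B ASO replicates 2 to 4 and 4262 TPM in replicate 1. In the 6 libraries 7 of the 10 were below 0 in log2 fold change, while TNNI1, NKX2-5 and MYH6 were above 0 (0.42, 0.39 and 0.14). Fibroblast markers were present too (7 of 7), at 2874 to 5162 TPM in the controls and 1332 to 2053 TPM in replicates 2 to 4, with 6 of 7 below 0 and PDGFRA above (0.60). Replicate 1, at 4051 TPM, lay within the control range. Smooth muscle markers (4 of 4) had 934 to 1330 and 544 to 723 TPM, and 1075 TPM in replicate 1. In bulk RNA, fewer cells of a type and less RNA per cell cannot be told apart. Endothelial and pluripotency markers were near the floor, with 1 of 4 in each list at 1 TPM or more, and no marker was at 0 in all 6 libraries. Mitochondrially encoded RNA took 27.4% to 33.6% of TPM in the 6 libraries and 17.2% in replicate 1. The part of these differences in the chaperone values of replicate 1 was not tested.

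Chaperone transcripts were led by a few genes. The 66 rows together held 5270 ± 252 TPM (SD, n = 3) in control cells, against 5296 ± 514 TPM (SD, n = 3) after the MYH7B ASO, or 0.527% and 0.530% of all TPM. The 8 highest rows made up 72.4% of that sum in the controls. HSPB7, the cardiovascular small heat shock protein, ranked highest at 1066 ± 133 TPM (SD, n = 3) in control cells, ahead of HSPB1 (HSP27) at 903 ± 156 TPM (SD, n = 3), and these neighbours in rank overlapped. Then came the constitutive cytosolic HSP90 gene HSP90AB1 at 625 ± 37.3 TPM (SD, n = 3) and the mitochondrial chaperonin HSPD1 (HSP60) at 311 ± 13.6 TPM (SD, n = 3), whose library values did not overlap with each other or with the 2 small heat shock proteins above. HSP90AA1 at 275 ± 21.2, HSP90B1 at 242 ± 59.9, HSPE1 at 202 ± 33.6 and HSPA8 at 189 ± 38.5 TPM (SD, n = 3) followed, with spreads that ran into one another. In control cells 9 rows were at 100 TPM or more, 41 between 10 and 100 and 16 below 10. The DNAJC family, the largest with 27 rows, had a median of only 12.8 TPM, from DNAJC28 at 1.72 to DNAJC7 at 45.1 TPM. The coefficient of variation between control libraries had a median of 17.4% over the 66 rows and 22.6% over all 15988 tested genes.

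**Figure D1:**
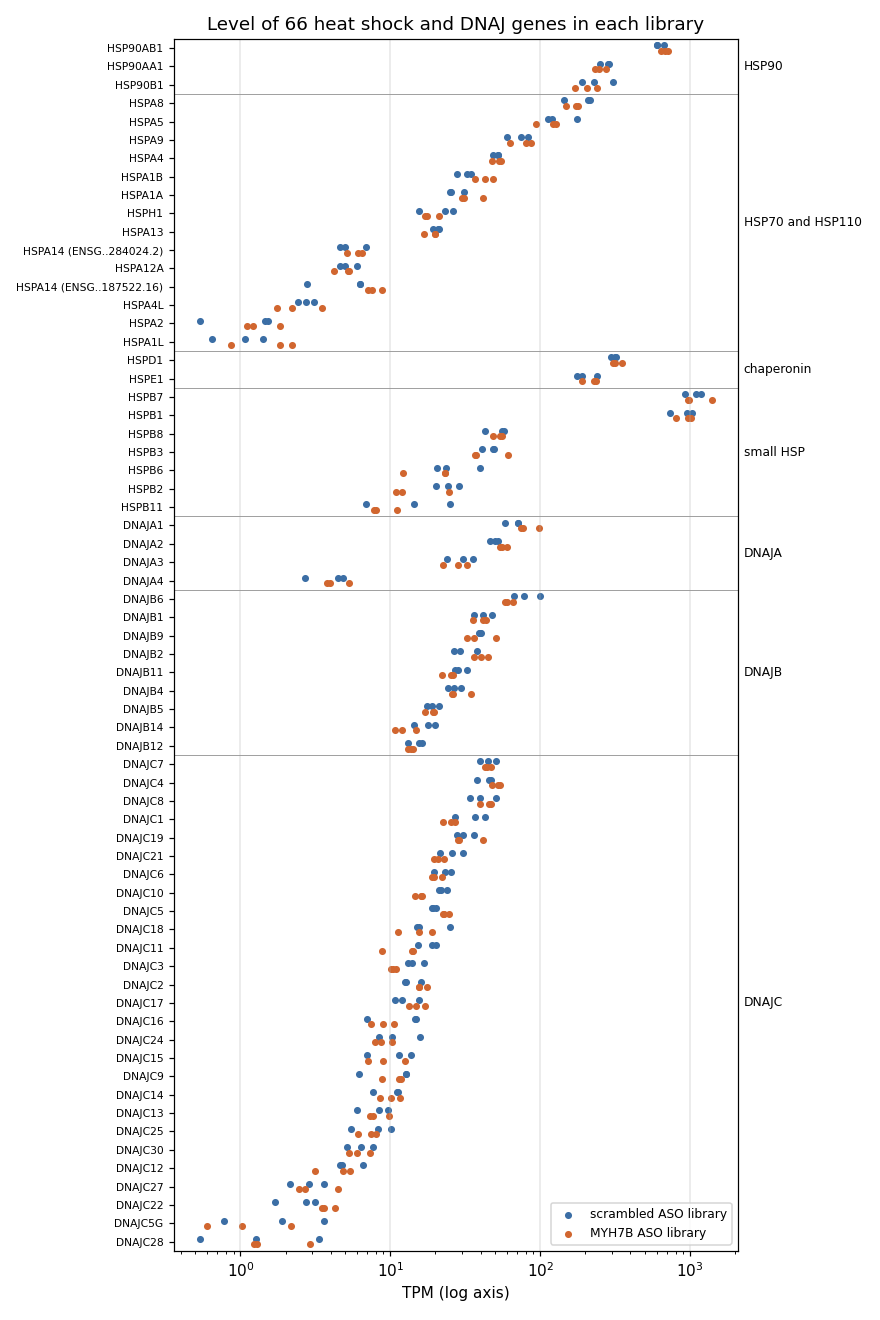
Level of each of the 66 rows in each of 6 libraries, in TPM on a log axis, grouped by family and sorted by the control mean. Blue dots are the 3 scrambled ASO libraries and orange dots the 3 MYH7B ASO libraries. HSPB7, HSPB1 and HSP90AB1 stand at the right, above all other genes, and for most genes the 2 colours overlap.

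None of the 66 rows was called at an adjusted p under 0.05 in limma, a linear model across all tested genes on log2(TPM + 1), where 1.66% of all tested genes were called (0.181% higher and 1.48% lower). Those 265 calls over all genes became 53 to 149 when any single library was left out, and the 66 rows still held none. The lowest adjusted p was 0.170, for the ER oxidoreductase gene DNAJC10. At an unadjusted p under 0.05 there were 7 of the 66 (10.6%), 1 higher and 6 lower, against 15.2% of all tested genes. Rescaling the libraries by median ratios turned that split to 7 higher and 3 lower, with all-gene shares of 8.13% higher and 9.5% lower, while still none was called. The median log2 fold change was -0.02 over the 66 rows and -0.04 over all tested genes, with 31 rows above 0 and 35 below. Differences ran from -0.67 for HSPB2 to 0.59 for 1 of the HSPA14 rows, the only 2 beyond 1.5-fold in size, against 17.7% of all tested genes. The 2 groups of libraries did not overlap for 7 rows that were higher (10.6%, against 7.11% of all tested genes) and 6 that were lower (9.09%, against 14.1%). A p above the threshold does not show equal levels, but the 95% intervals set limits. They lay within a 1.5-fold change in either direction for 30 rows, within 2-fold for 55 and within 3-fold for all 66.

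**Figure D2:**
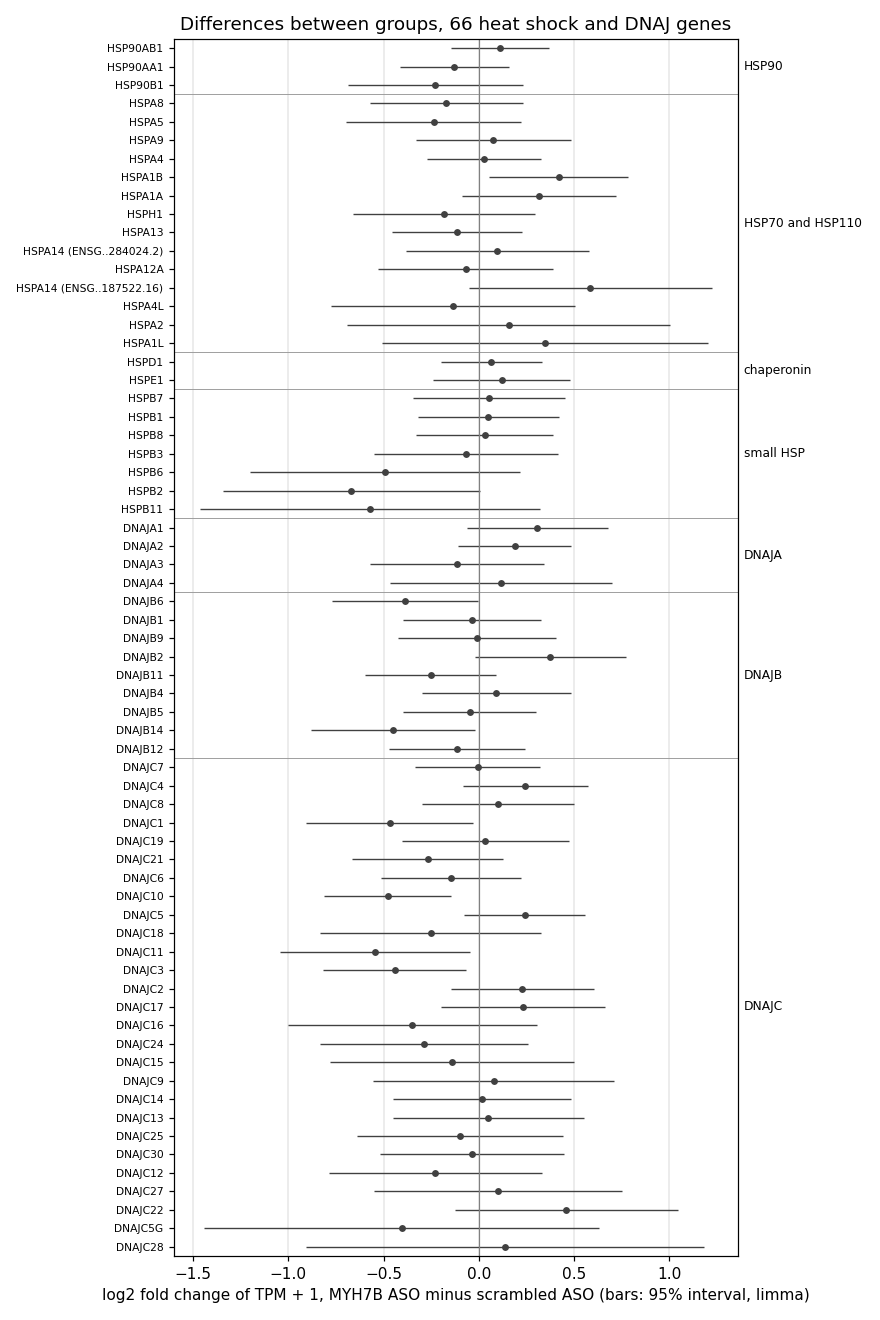
Difference between the groups for each of the 66 rows, as the log2 fold change of TPM + 1 (MYH7B ASO minus scrambled ASO, 3 libraries each). Dots are estimates and bars 95% intervals from limma. Intervals that miss 0 are those of the 7 rows with an unadjusted p under 0.05, among them DNAJC10 on the left and HSPA1B on the right.

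The inducible HSP70 genes HSPA1A and HSPA1B, neighbours in the major histocompatibility region of chromosome 6, code for nearly the same protein. They are shown first because HSPA1B was the only one of the 66 rows called in the authors' deposited table and because the pair share their upstream sequence. Over the 250 bases before their starts the RefSeq sequences (GRCh38.p14) were 93.6% identical. The stretches printed here end at positions -80 and -79 from the RefSeq starts, carry no annotated exon of GENCODE 29, and differ at 4 of 107 positions. Capitals mark a 2-unit heat shock element, the HSF1 motif in its short form, found by searching GAANNTTC.
HSPA1A, chr6:31815357-31815463, plus strand: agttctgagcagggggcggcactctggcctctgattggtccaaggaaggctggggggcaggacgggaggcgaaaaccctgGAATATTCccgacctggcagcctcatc
HSPA1B, chr6:31827553-31827659, plus strand: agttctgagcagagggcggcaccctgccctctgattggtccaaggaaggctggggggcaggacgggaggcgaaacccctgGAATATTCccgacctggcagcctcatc

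HSPA1B (ENSG00000204388.7) had 27.8, 32.4 and 34.4 TPM in the controls and 48.4, 42.5 and 36.9 TPM in MYH7B ASO replicates 2 to 4. Each of those 3 libraries stood above every control. The estimate on the log2 scale was 0.42 (SE 0.16, 95% interval from 0.05 to 0.78) and it did not pass over all genes (limma adjusted p = 0.264). HSPA1A (ENSG00000204389.10) had 25.2, 25.05 and 30.8 TPM against 41.4, 30.9 and 29.9 TPM, a log2 fold change of 0.31 (SE 0.18, limma adjusted p = 0.451). Here the groups overlapped, since replicate 4 lay below the highest control. In the authors' deposited table HSPA1B differed by 0.46 on the log2 scale (adjusted p-value 0.0100), where 8.71% of genes with an adjusted p-value were called (3.02% higher). The authors' deposited table gave HSPA1A 0.37 (adjusted p-value 0.102). Its fold changes are labelled as shrunken, here and below, so their sizes are not like for like with those of limma. Its headers do not say which libraries were compared or whether MYH7B ASO replicate 1 was among them. Its calls, here and below, may therefore rest on other libraries than those of limma. Replicate 1 went the other way, with 18.4 TPM of HSPA1B and 16.1 TPM of HSPA1A, below every control library. With it in the fit the log2 fold changes were 0.13 for HSPA1B and 0.06 for HSPA1A (limma adjusted p = 0.879 and 0.944). Reads cannot be assigned with certainty between copies this alike.

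HSPA8 (HSC70), the constitutive cytosolic HSP70, was the most abundant HSP70 transcript. Its values were 215, 145 and 208 TPM in the controls and 172, 178 and 148 TPM with the MYH7B ASO, so the groups overlapped (log2 fold change -0.17, SE 0.17, limma adjusted p = 0.686). Replicate 1 stood far above both groups at 342 TPM, and with it the difference was 0.09. The ratio of HSPA8 to HSPA1B was 7.72, 4.48 and 6.06 in the controls and 3.56, 4.18 and 4.02 in MYH7B ASO replicates 2 to 4. Those 3 lay below every control, but replicate 1, at 18.6, lay above all of them, and the ratio was not tested. The HSPA8 promoter holds the long form of the heat shock element at positions -230 and -55 from the RefSeq start. The one at -230 is shown here in capitals, in the stretch outside exons.
HSPA8, chr11:123062336-123062386, minus strand: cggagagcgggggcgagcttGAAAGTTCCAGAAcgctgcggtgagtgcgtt

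None of the other HSP70 and HSP110 genes was called. HSPA4, an HSP110-type exchange factor that reloads HSP70 with ATP, had 51.0 ± 2.11 TPM (SD, n = 3) in the controls against 52.1 ± 3.59 TPM (SD, n = 3) after the MYH7B ASO. HSPH1 (HSP105), also an exchange factor and heat-inducible, had 21.6 ± 5.38 and 18.6 ± 2.10 TPM (SD, n = 3 each), a log2 fold change of -0.18 (limma adjusted p = 0.727). HSPA4L, its low-level relative, had 2.76 ± 0.33 and 2.49 ± 0.92 TPM (SD, n = 3 each). One row of HSPA14, which codes for an HSP70 bound to ribosomes, had 6.27, 2.80 and 6.28 TPM in the controls and 8.80, 7.52 and 7.14 TPM with the MYH7B ASO, without overlap and with a log2 fold change of 0.59 (SE 0.28, limma adjusted p = 0.372). Its other, overlapping row differed by 0.10, and reads shared by them cannot be assigned with certainty. Over the 14 rows of this family the median log2 fold change was 0.05, with 8 above 0.

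The cytosolic HSP90 genes HSP90AB1 and HSP90AA1 overlapped between the groups, as did HSP90B1, which is described with the ER chaperones. HSP90AB1 had 604, 668 and 604 TPM in the controls and 711, 679 and 635 TPM with the MYH7B ASO, a log2 fold change of 0.11 with a 95% interval from -0.15 to 0.37 (limma adjusted p = 0.684). The inducible HSP90AA1 had 284, 251 and 290.02 TPM against 249, 273 and 232 TPM, a difference of -0.13 with an interval from -0.41 to 0.16 (limma adjusted p = 0.668). As ratios the intervals ran from 0.904 to 1.29 for HSP90AB1 and from 0.751 to 1.11 for HSP90AA1. The ratio of HSP90AB1 to HSP90AA1 was 2.29 ± 0.33 (SD, n = 3) and 2.69 ± 0.19 (SD, n = 3), and 1.84 in replicate 1, below every other library. Upstream of HSP90AB1 lie 2 copies of the long heat shock element, at positions -165 and -112 from the RefSeq start, in capitals.
HSP90AB1, chr6:44247753-44247865, plus strand: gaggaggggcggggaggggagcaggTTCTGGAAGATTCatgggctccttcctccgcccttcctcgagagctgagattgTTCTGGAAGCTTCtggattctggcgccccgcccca

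The motif search covered 300-base promoter windows, 250 before and 50 after each start, which the RefSeq table holds for 59 of the 65 symbols. The long heat shock element was searched as GAANNTTCNNGAA and its reverse complement TTCNNGAANNTTC. It occurred for 6 of the 59 genes (10.2%): DNAJA1, DNAJB6, HSP90AA1, HSP90AB1, HSPA8 and HSPD1. Over all 27305 genes of the table the share was 0.608%, and over all 35116 windows 0.49%. The short form GAANNTTC, which reads the same on both strands and lies inside every long element, occurred for 15 of the 59 (25.4%) against 8.21% of all genes. A match describes letters in the window and shows no binding. None of the 6 genes with the long element was called. DNAJA1 was higher without overlap, as were 7.11% of all tested genes, and DNAJB6 was lower without overlap, as were 14.1%. The other 4 overlapped, and the estimates of the 6 lay on both sides of 0.

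The chaperonin pair fold proteins inside mitochondria, HSPD1 as the barrel and HSPE1 (HSP10) as its lid, and their genes lie head to head on chromosome 2. The annotated span of HSPE1 lies inside that of HSPD1 on the other strand, so reads from the overlap cannot be told apart without strand. HSPD1 had 322, 315 and 296 TPM in the controls and 353, 315 and 308 TPM with the MYH7B ASO, a log2 fold change of 0.06 (limma adjusted p = 0.836). HSPE1 had 175, 191 and 239 TPM against 190.4, 228 and 236 TPM, a log2 fold change of 0.12 (limma adjusted p = 0.761). Both pairs of groups overlapped. With replicate 1, where HSPD1 was 252 TPM and HSPE1 113 TPM, the lowest of all 7 libraries for each, the differences were -0.03 and -0.11.

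Small heat shock proteins included the 2 most abundant chaperone transcripts of these cells, and the group means of both were close. HSPB7 had 1093, 1184 and 921 TPM in the controls and 1407, 963 and 983 TPM with the MYH7B ASO (log2 fold change 0.05, limma adjusted p = 0.918), and 475 TPM in replicate 1. HSPB1 had 730.1, 947.5 and 1032 TPM against 1021, 969 and 802 TPM (log2 fold change 0.05, limma adjusted p = 0.917). HSPB8, which works with the cochaperone BAG3 in selective autophagy, had 51.9 ± 7.96 and 52.7 ± 3.75 TPM (SD, n = 3 each). HSPB3, a muscle-restricted partner of HSPB2, had 46.2 ± 4.80 and 45.1 ± 13.6 TPM (SD, n = 3 each). In HSPB7, HSPB1, HSPB8 and HSPB3 the groups overlapped.

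HSPB2, a muscle small heat shock protein that binds the myotonic dystrophy kinase, had the largest negative estimate of the 66. It had 20.2, 28.8 and 24.3 TPM in the controls and 24.7, 12.04 and 10.9 TPM with the MYH7B ASO. Replicate 2 lay among the controls and the other 2 lay below them, and the log2 fold change of -0.67 (SE 0.30) did not pass (limma adjusted p = 0.332). Replicate 1 was lower still at 2.78 TPM, which moved the estimate to -1.19 (limma adjusted p = 0.372). HSPB2 lies head to head with CRYAB on chromosome 11 and its annotated span overlaps that gene on the other strand, so reads from the overlap cannot be told apart without strand.

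CRYAB, the alpha-B crystallin gene, is itself a small heat shock protein outside the name rule, abundant in heart and bound to desmin and titin. It had 440, 432 and 504 TPM in the controls and 281, 279 and 284 TPM with the MYH7B ASO, and 145 TPM in replicate 1. It fell by 0.70 on the log2 scale (SE 0.12) and was the only called gene of the related list described further on (limma adjusted p = 0.0268). Every MYH7B ASO library stood below every control. The call did not survive the loss of any single library, with limma adjusted p-values from 0.0633 to 0.122, nor the addition of replicate 1 (0.135), where its estimate was -0.94. The authors' deposited table called CRYAB lower, by -0.58 on the log2 scale (adjusted p-value 0.000248). Summed cardiomyocyte and fibroblast markers were also lower in replicates 2 to 4, with 7 of 10 and 6 of 7 of the genes below 0, and in replicate 1 the cardiomyocyte sum was lower still but the fibroblast sum lay in the control range. Their part in the CRYAB difference was not tested.

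**Figure D3:**
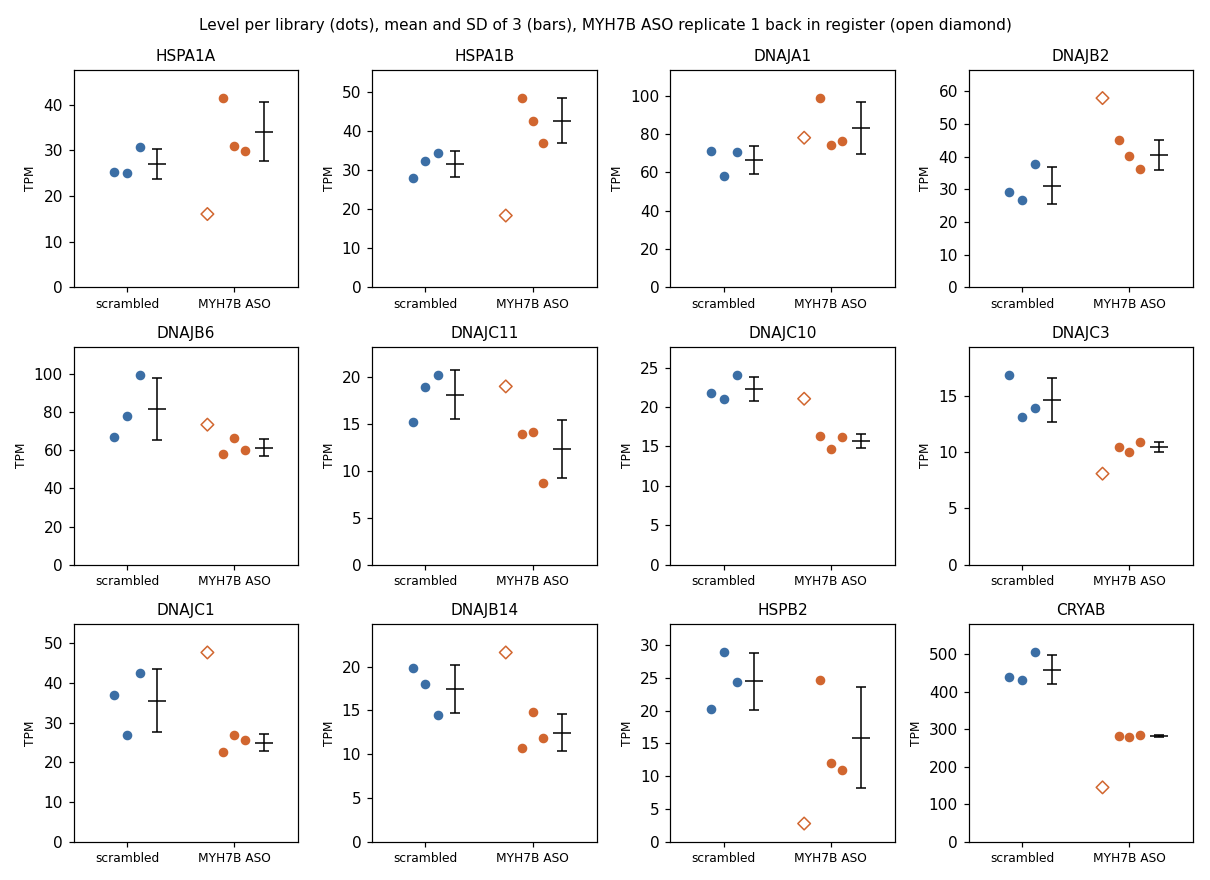
TPM per library for 11 of the chaperone genes and for CRYAB, on linear axes from 0. Filled dots are the 6 compared libraries, bars the mean and SD of 3, and the open diamond is MYH7B ASO replicate 1 put back in register. For HSPA1A and HSPA1B the diamond lies below all controls, opposite to the other 3 MYH7B ASO libraries, and for CRYAB it lies below them.

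DNAJA proteins are the general J-domain partners of cytosolic and mitochondrial HSP70. DNAJA1 had 70.8, 58.2 and 70.7 TPM in the controls and 98.7, 74.0 and 76.2 TPM with the MYH7B ASO, without overlap (log2 fold change 0.31, SE 0.16, limma adjusted p = 0.419). DNAJA2 was also higher without overlap, at 49.5 ± 3.08 and 56.5 ± 3.06 TPM (SD, n = 3 each), a log2 fold change of 0.19. In replicate 1 DNAJA1 kept above the controls at 78.0 TPM, while DNAJA2 was below them at 34.2 TPM. DNAJA3, the mitochondrial one, overlapped at 30.1 and 27.7 TPM.

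DNAJB proteins include stress-inducible and aggregation-suppressing J-domain partners. DNAJB6, which keeps polyglutamine proteins and Z-disc proteins soluble and causes a limb-girdle muscular dystrophy when mutated, had 67.3, 78.3 and 99.5 TPM in the controls and 57.9, 66.3 and 60.0 TPM with the MYH7B ASO. The groups were barely apart, and the log2 fold change of -0.39 (SE 0.17) did not pass (limma adjusted p = 0.317). In replicate 1 DNAJB6 lay among the controls at 73.6 TPM, and with it the estimate was -0.33. DNAJB2, a neuronal and muscle J-domain protein that steers clients to the proteasome, had 29.2, 26.6 and 37.6 TPM against 45.0, 40.2 and 36.1 TPM (log2 fold change 0.38, SE 0.17, limma adjusted p = 0.353). Only replicate 4 lay among the controls, replicate 1 was the highest library at 57.9 TPM, and with it the estimate was 0.50 (limma adjusted p = 0.332). In the authors' deposited table DNAJB2 differed by 0.41 on the log2 scale (adjusted p-value 0.0544). DNAJB1 (HSP40), the classic heat-inducible one, had 41.6, 36.0 and 47.5 TPM against 43.8, 41.8 and 35.9 TPM, a difference of -0.04 that changed sign with median-ratio rescaling (0.02). Of the 9 DNAJB rows 7 were below 0, and with median-ratio rescaling 4 were. The long heat shock element of DNAJB6 is shown in capitals, at position -131.
DNAJB6, chr7:157336848-157336910, plus strand: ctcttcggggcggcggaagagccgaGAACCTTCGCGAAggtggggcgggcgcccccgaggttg

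DNAJC proteins carry the J domain on otherwise unrelated proteins with set tasks. DNAJC11, a protein of the mitochondrial outer membrane and cristae junctions, had 15.3, 18.99 and 20.2 TPM in the controls and 14.0, 14.2 and 8.73 TPM with the MYH7B ASO (log2 fold change -0.55, SE 0.22, limma adjusted p = 0.287). The groups did not overlap, but replicate 1, at 19.02 TPM, sat among the controls. DNAJC22, a low-level gene, had 1.70, 2.75 and 3.14 TPM against 4.25, 3.51 and 3.59 TPM (log2 fold change 0.46, SE 0.26, limma adjusted p = 0.448). DNAJC5, the cysteine string protein of secretory vesicles, and DNAJC4 were higher without overlap, at 19.5 ± 0.67 and 23.2 ± 1.122 TPM for DNAJC5 and 43.4 ± 4.66 and 51.5 ± 3.29 TPM for DNAJC4 (SD, n = 3 each). Their log2 fold changes were 0.24 each. Over 7 libraries DNAJA1, DNAJC4, DNAJC5 and DNAJC22 were the rows still higher without overlap (4 of 66, with 4.7% of all tested genes), and DNAJC3 was the 1 still lower (10.2%).

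Among the compartment lists, as drawn up here, the ER chaperones gave the most uniform direction. The list holds 10 of the 66 rows, and it and the other lists were drawn up with earlier results of these data known. The 10 estimates were all below 0, where 54.8% of all tested genes were, with a median log2 fold change of -0.24. The smallest in size was that of DNAJB9 (-0.01), with group means of 39.5 and 39.9 TPM. None of the 10 was called. At an unadjusted p under 0.05 there were 4 (40%, against 15.2% of all tested genes), and 4 were lower without overlap (40%, against 14.1%). These counts depend on which rows were listed. J-domain rows left off include DNAJC14 (log2 fold change 0.02), DNAJC16 (-0.35), DNAJC18 (-0.25) and DNAJC25 (-0.10). Whether these belong on the list was not examined. DNAJC10 (ERdj5), which reduces disulfides in proteins sent for degradation, had 21.8, 21.0 and 24.0 TPM in the controls and 16.3, 14.6 and 16.1 TPM with the MYH7B ASO (log2 fold change -0.48, SE 0.15, limma adjusted p = 0.170). DNAJC3 (p58IPK), an HSP70 partner and kinase inhibitor, had 16.8, 13.1 and 13.9 TPM against 10.4, 10.03 and 10.9 TPM (log2 fold change -0.44, SE 0.16, limma adjusted p = 0.246). Both were lower in all 3 compared libraries of the MYH7B ASO group. Replicate 1 had the lowest DNAJC3 value of all, 8.08 TPM, but its DNAJC10 value of 21.1 TPM lay among the controls.

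DNAJC1, a membrane J-domain protein of the ER, had 37.0, 26.90 and 42.6 TPM in the controls and 22.5, 26.86 and 25.6 TPM with the MYH7B ASO (log2 fold change -0.47, SE 0.19, limma adjusted p = 0.294). The groups all but touched, and replicate 1 was the highest library at 47.7 TPM. DNAJB14, another ER membrane protein, had 19.8, 17.96 and 14.4 TPM against 10.7, 14.8 and 11.9 TPM (log2 fold change -0.45, SE 0.19, limma adjusted p = 0.305), with replicate 1 at 21.6 TPM. DNAJB11 (ERdj3), which binds secreted and nascent proteins, was lower without overlap at 29.3 ± 2.89 and 24.4 ± 2.15 TPM (SD, n = 3 each). DNAJB9 (ERdj4), a sensitive target of the ER stress response, differed by -0.01. Its control libraries, at 39.5 ± 0.73 TPM (SD, n = 3), had the smallest coefficient of variation of the 66 rows (1.83%).

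The master ER chaperones HSPA5 (BiP, GRP78) and HSP90B1 (GRP94) overlapped between the groups. HSPA5 had 112.5, 120 and 175 TPM in the controls and 121, 127 and 93.6 TPM with the MYH7B ASO (log2 fold change -0.24, SE 0.20, limma adjusted p = 0.617). HSP90B1 had 191, 228 and 308 TPM against 204, 240.1 and 170 TPM (log2 fold change -0.23, SE 0.20, limma adjusted p = 0.634). Scrambled ASO replicate 3 was high and MYH7B ASO replicate 4 low for both, and the ratio of HSP90B1 to HSPA5 was 1.78 ± 0.10 and 1.80 ± 0.10 (SD, n = 3 each), with 1.58 in replicate 1. These 2 were the only genes of the 59 whose windows hold the ER stress response element, searched as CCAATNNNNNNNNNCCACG on both strands, and neither window holds a heat shock element. HSPA5 has it at position -66 and HSP90B1 at -194 and, on the other strand, at -89. It occurs for 0.092% of all genes, and it is printed in capitals.
HSPA5, chr9:125241371-125241429, minus strand: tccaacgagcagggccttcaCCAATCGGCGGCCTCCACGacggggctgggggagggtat
HSP90B1, chr12:103930212-103930254, plus strand: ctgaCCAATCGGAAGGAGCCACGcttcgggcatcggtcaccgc

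The summed level of the 10 ER genes was 503, 528 and 686 TPM in the controls and 496, 529 and 412 TPM with the MYH7B ASO, so the groups overlapped, and 657 TPM in replicate 1. Scrambled ASO replicate 3 had the highest sum, and also the highest fibroblast marker sum, 5162 TPM. Without it the median log2 fold change of the list was -0.14, and without MYH7B ASO replicate 4 it was also -0.14. With median-ratio rescaling 9 of 10 were below 0 and 1 had an unadjusted p under 0.05. Over 7 libraries the median was -0.21, with 9 of 10 below 0 and DNAJC3 alone without overlap. The part of fibroblast RNA in the ER values was not tested.

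**Figure D4:**
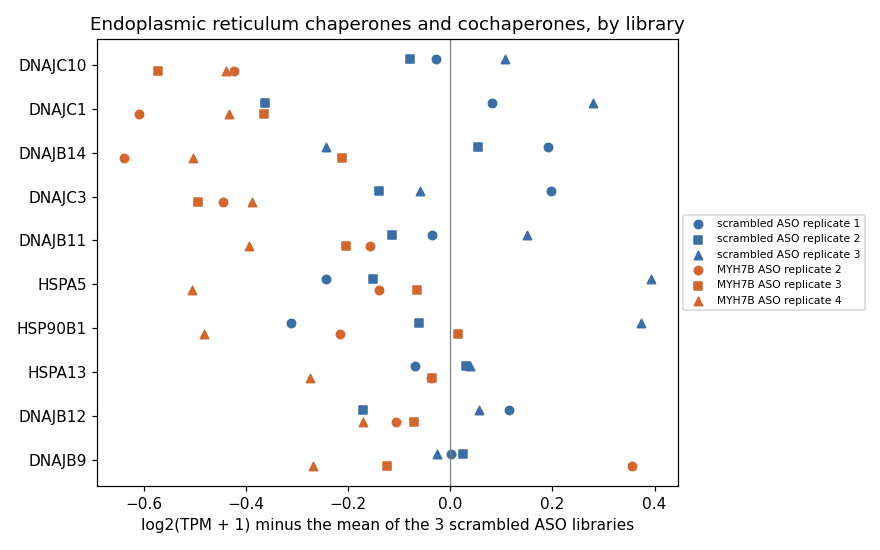
ER chaperones and cochaperones by library, as log2(TPM + 1) minus the mean of the 3 scrambled ASO libraries. Blue symbols are controls, orange symbols MYH7B ASO libraries, and shapes mark the replicate. Orange lies left of blue for DNAJC10, DNAJC3, DNAJB11 and, barely, DNAJC1, while scrambled ASO replicate 3 stands to the right for HSPA5 and HSP90B1.

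In the other groupings estimates lay on both sides of 0, except for the chaperonin pair, where both were above. Of 11 tested heat-inducible HSF1 targets, as listed here, 6 were above 0 (HSPA1A, HSPA1B, HSPB1, HSPD1, HSPE1 and DNAJA1). The 5 below 0 were HSPA4L, HSPA8, HSPH1, HSP90AA1 and DNAJB1. The median of the 11 was 0.05, with 1 at an unadjusted p under 0.05 (HSPA1B, 9.09% against 15.2% of all tested genes) and none called. HSPA8 was listed though described above as constitutive, and genes outside the name rule, such as CRYAB, were not. These counts depend on that choice. With median-ratio rescaling 7 of the 11 were above 0, and HSPA1A, HSPA1B and DNAJA1 were higher at an unadjusted p under 0.05, where 8.13% of all tested genes were, with none called. Of 8 mitochondrial chaperones and J-domain proteins, 4 were above 0 and 4 below, and DNAJC11 was the 1 with an unadjusted p under 0.05 (12.5%). Of the 5 DNAJC genes linked to RNA or chromatin 4 were above 0 (median log2 fold change 0.10), and of the 4 linked to vesicles and clathrin 3 were (median 0.08), with none called. The 6 muscle small heat shock proteins split evenly, with a median of -0.02.

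Cochaperones, chaperonin subunits and heat shock factors outside the name rule were taken from a list of 52 genes, of which 51 were tested and CRYAA was listed at 0 in all 6 libraries. CRYAB was the 1 called (1.96%, against 1.66% of all tested genes). At an unadjusted p under 0.05 there were 5 (9.8%, against 15.2%), 1 higher and 4 lower, and the median log2 fold change was 0.01. The genes besides CRYAB were named after their values were seen. HSF2, a heat shock factor that pairs with HSF1, had 13.4, 29.03 and 15.6 TPM in the controls and 9.90, 5.81 and 8.21 TPM with the MYH7B ASO, without overlap (log2 fold change -1.13, SE 0.30, limma adjusted p = 0.123). In the authors' deposited table HSF2 was called lower, at -0.83 (adjusted p-value 0.00784). HSF1 itself had 57.7, 80.6 and 72.6 TPM against 88.6, 79.1 and 71.9 TPM and overlapped (log2 fold change 0.19, limma adjusted p = 0.623). CDC37L1, a relative of the HSP90 kinase cochaperone, differed by 0.48, SIL1, the exchange factor of HSPA5, by -0.55, and TRAP1, the mitochondrial HSP90, by -0.45, with none of the 3 called (limma adjusted p from 0.206 to 0.290).

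The authors' deposited table, which holds all 66 rows, called 1 of them, HSPA1B, where 8.71% of all genes with an adjusted p-value were called. It gave a median log2 fold change of 0.03 over the 66 and of -8.6e-05 over all those genes. After HSPA1B its lowest adjusted p-values among the rows were those of DNAJB2 and of DNAJC10, the latter at -0.39 on the log2 scale (adjusted p-value 0.0894) in the authors' deposited table. DNAJC11 followed HSPA1A there, at -0.43 (adjusted p-value 0.111) in the authors' deposited table.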

How the data were processed

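The authors' deposited files hold a TPM table of 60234 genes in 7 libraries and a comparison table of 25374 genes. Per the file headers, the authors' deposited table gives per gene the normalized count averaged over libraries (a signal), the log2 fold change, its standard error, a test score and the p-value, which has an adjusted form for 15527 genes. DESeq2 and the build GRCh38.p13 are named in the submitters' processing notes without a role, and the aligner and quantifier are not given in the sources used here. TPM keeps no depth, so no counting interval is given. No column was left unused.

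Genes averaging 1 TPM or more in 6 libraries were tested on log2(TPM + 1), a scale that understates changes of low genes, with limma 3.58.1 in R 4.3.3 (lmFit, eBayes with a trend). Adjustment was Benjamini-Hochberg over 15988 genes, and called means an adjusted p under 0.05. An exact permutation test of 3 libraries against 3 cannot go below 0.1 and was not run. The steps were tested on simulated data. Tables were made with pandas 2.3.3 and numpy 2.4.6 and plots with matplotlib 3.10.9, in Python 3.11.15.

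The genes and lists were chosen with earlier results of these data known. Named genes were MYH7B, the 12 rows with the lowest p, the 8 highest in the controls, the heat-inducible list, called genes of the related list, and the lowest and highest of a family. Other genes named (HSPA4, HSPA5, HSPB3, HSPB8, DNAJA2, DNAJA3, DNAJB9, DNAJB11, DNAJC4, DNAJC5 and those of the related list besides CRYAB) were picked after their values were seen. Gene positions are GENCODE 29, promoter sequences RefSeq GRCh38.p14, and the deposited values may rest on another release.

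The column of MYH7B ASO replicate 1 has 58721 filled and 1513 empty positions, and GENCODE 29 lists 58721 genes. Sorted identifiers were assigned in turn, which placed 99.6% of its TPM, and the result served as an alternative and as a printed value only. The alternatives were pseudocounts of 0.1 and 5, no minimum or a mean of 5 TPM, median-ratio rescaling, removal of mitochondrially encoded genes, limma without the trend or with a robust prior, replicate blocks, each library left out and 7 libraries.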

Additional observations from a re-analysis of the deposited data

Results flagged for a closer look

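With MYH7B ASO replicate 1 back in register, 25 genes were searched for a value set apart from the rest of the 4 MYH7B ASO libraries. Such a value was found for 3 genes. The search flags about 1 in 20 by chance, but these genes were partly chosen by a low p in replicates 2 to 4. That choice favours close values there, and genes of a library are not independent, so the rate is no yardstick for the 3. HSPA8, the constitutive HSP70, stood at 342.1 TPM in replicate 1, against 172, 178 and 148 TPM in replicates 2 to 4. CRYAB, the alpha-B crystallin gene, stood at 144.9 TPM in replicate 1, against 281, 279 and 284 TPM. DNAJA1, a cytosolic J-domain partner of HSP70, stood at 98.69 TPM in replicate 2, against 78.0 TPM in replicate 1 and 74.0 and 76.2 TPM in replicates 3 and 4. The first 2 lie in the library that was deposited out of row register and whose mitochondrially encoded share was 17.2%; the part of either in these values was not tested.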

How the results depend on the processing

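No row of the 66 was called in any of the 18 alternatives. Their median log2 fold change lay between -0.10 (block by description number) and 0.04 (without MYH7B ASO replicate 4). Calls over all genes, 265 in the comparison reported, were 40 with no minimum level, 150 without the trend, 53 to 149 with any single library left out and 170 with 7 libraries. Same-numbered libraries had correlations of deviations of 0.08 and 0.11 by title and -0.07 and -0.04 by description. Those by title were the highest of all pairs between the groups, where the next was 0.04. With 2 such pairs it cannot be decided whether the numbers mark libraries that belong together. With a replicate block by title or description, or by title over 7 libraries (chosen after seeing the data), limma called 0 genes, with 1718, 1096 and 1773 at an unadjusted p under 0.05. MYH7B differed by -1.85 with no minimum, -1.92 and -2.17 under the 2 blocks, -2.30 with 7 libraries and -2.41 with 7 libraries and the block, and did not pass in any of these (limma adjusted p from 0.0525 to 0.720). Leaving out a library gave it -2.04 to -1.66 (limma adjusted p = 0.0618 without MYH7B ASO replicate 4). The related list had 0 calls instead of 1 with no minimum, without the trend, under each block, with 7 libraries and without any single library. In the 6 libraries only 2 replicate numbers occur in both groups, by title or by description, so the block estimates rest on those libraries. A block leaves very little to measure the spread, also over 7 libraries, so the lack of calls there says little about the genes. The cause of the other changes was not tested. CRYAB kept its direction throughout, with limma adjusted p up to 0.720. Over 25 named genes and their alternatives, 26 values changed sign, none of them called, and 410 kept sign and call. DNAJB1 turned to 0.0199 with median-ratio rescaling, 0.0495 with the title block, 0.0198 with 7 libraries and 0.0936 with 7 libraries and the block. HSPA8 turned to 0.00909, 0.0894 and 0.229 under the last 3 of these. HSPB7 turned to -0.10 with the description block, -0.25 with 7 libraries and -0.30 with the block added, HSPD1 to -0.0269 and -0.0318 under these 7-library fits, and HSPE1 to -0.0353, -0.115 and -0.233 with the title block, 7 libraries and both. HSP90AA1 (0.0533) and HSP90B1 (0.0034) turned with 7 libraries and the block, HSPA4L (0.0843) with the title block and HSPB1 (-0.17) with the description block. With single libraries left out the ranges were -0.135 to 0.0603 for DNAJB1, -0.338 to 0.0206 for HSPA4L, -0.10 to 0.15 for HSPB1 and -0.12 to 0.15 for HSPB7. Depth is unknown for TPM, so no counting error was computed for low genes such as DNAJC28. In the authors' deposited table the mean normalized count of DNAJC28 was 48.2.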

Other observations

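Chaperones that act on the contractile apparatus were described in the related list by their values alone. UNC45B, the muscle chaperone that folds myosin heads with HSP90, had 57.6, 62.2 and 47.6 TPM in the controls and 70.02, 55.8 and 63.3 TPM with the MYH7B ASO. SMYD1, a muscle methyltransferase that also binds myosin, had 126, 138 and 105 TPM against 159, 110.1 and 123 TPM. Both sets overlapped, with log2 fold changes of 0.18 and 0.08. Of the cardiac myosin heavy chains among the markers, MYH7 had 962 ± 371 and 394 ± 159 TPM and MYH6 1169 ± 335 and 1272 ± 208 TPM (SD, n = 3 each). BAG3, the partner of HSPB8, had 28.4, 35.2 and 37.5 TPM against 31.4, 29.5 and 27.0 TPM, a difference of -0.19. The cytosolic chaperonin TRiC, which folds actin and tubulin, showed CCT3 at 126 and 115 TPM, CCT7 at 209 and 190 TPM and CCT5 at 94.6 and 109 TPM. These subunits had the largest estimates in size (-0.13, -0.15 and 0.21 on the log2 scale). Those of TCP1, CCT2, CCT4, CCT6A and CCT8 lay between -0.01 and 0.11, and no subunit was called by limma. SERPINH1, the collagen chaperone HSP47 of the ER, had 202.5, 200.1 and 339 TPM against 228, 226 and 170 TPM, and its highest library, scrambled ASO replicate 3, was also the highest for the fibroblast markers.

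Some chaperone rows varied more between control libraries than between groups. HSPB11, a protein of intraflagellar transport grouped here with the small heat shock proteins by name only, had 6.89, 14.3 and 25.2 TPM in the controls. It had 11.1, 7.79 and 8.003 TPM with the MYH7B ASO, a log2 fold change of -0.57 with a 95% interval from -1.47 to 0.32. HSPB6 (HSP20), a phosphoprotein of muscle, had 23.6, 20.6 and 39.6 TPM against 23.3, 23.1 and 12.2 TPM. DNAJC28 had 3.36, 0.535 and 1.26 TPM in the controls, the widest relative spread of the 66 rows. These genes were picked after their values were seen.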
